A study of Mus musculus with 8 samples.

Results

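The 8 genes described here are Pklr, Rgs16, Mlxipl, Txnip, Khk, G6pc, Pck1 and Gys2, which respond to dietary carbohydrate in liver or carry out its release and storage as glucose. They were chosen by name, with earlier results of these libraries known, from the 34465 genes with a value in each library. Whole livers of mice were profiled by RNA sequencing, with 2 libraries in each of 4 groups and 8 in all. All mice were b-PDGFR fl/fl, with both alleles of the platelet-derived growth factor receptor beta gene floxed, of the strain 129S4/SvJae/FVB and 3 months old. The groups were GFAP-Cre positive livers at 72 h after partial hepatectomy, GFAP-Cre negative livers at 72 h after partial hepatectomy, GFAP-Cre positive sham-operated livers and GFAP-Cre negative sham-operated livers. The series text gives GFAP-Cre as a driver that deletes the receptor in hepatic stellate cells, so the hepatocytes, in which the 8 genes are mainly known, are not its stated target. Whether the libraries of a group are from different animals is not stated in the labels, and differences are therefore set against the spread between 2 libraries that may be technical.

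Hepatocytes sense glucose through the transcription factor ChREBP, encoded by Mlxipl, which binds carbohydrate response elements together with its partner Mlx and raises genes of glycolysis, fructose use and fat synthesis. Pklr (liver pyruvate kinase, the last step of glycolysis), Txnip (thioredoxin-interacting protein, which restrains glucose uptake), Khk (ketohexokinase, the first step of fructose use) and Rgs16 (an inhibitor of G protein signalling) are known glucose-responsive genes of liver. Pck1 (cytosolic phosphoenolpyruvate carboxykinase) and G6pc (the catalytic subunit of glucose-6-phosphatase) make and release glucose in fasting, under glucagon and glucocorticoid, and insulin lowers both, while Gys2 is the liver form of glycogen synthase.

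RefSeq promoter sequences of mouse build GRCm38.p6, 250 bases before each annotated start, were matched for 7 of the 8 genes, all but Gys2. The windows below are shown because they hold letters that match motifs linked to glucose or cAMP response, and the capitals mark the match. Whether a match is used by its gene was not tested. All lie on the plus strand.
Pklr, chr3:89136413-89136509: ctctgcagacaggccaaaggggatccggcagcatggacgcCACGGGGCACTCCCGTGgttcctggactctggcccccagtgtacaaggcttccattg
Txnip, chr3:96557832-96557928: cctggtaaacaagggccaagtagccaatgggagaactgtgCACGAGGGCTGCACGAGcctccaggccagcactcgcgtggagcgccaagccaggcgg
Khk, chr5:30921448-30921533: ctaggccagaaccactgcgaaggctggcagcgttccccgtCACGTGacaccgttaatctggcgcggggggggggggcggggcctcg
Mlxipl, chr5:135089752-135089837: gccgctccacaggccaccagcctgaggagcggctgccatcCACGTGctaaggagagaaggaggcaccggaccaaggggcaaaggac
Pck1, chr2:173152940-173153025: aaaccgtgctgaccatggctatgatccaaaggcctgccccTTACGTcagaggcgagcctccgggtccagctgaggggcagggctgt
G6pc, chr11:101367514-101367601: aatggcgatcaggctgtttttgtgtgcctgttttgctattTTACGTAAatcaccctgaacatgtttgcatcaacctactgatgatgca

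Both strands of every promoter in the table were searched. The carbohydrate response element consensus, a pair of E-box-like sites 5 bases apart, matched in Pklr at 170 to 154 bases before the second of its annotated starts, which lie 481 bases apart. It matched in 32 of 32851 mouse promoters (0.0974%). The Txnip window held the half-site CACGAG at both ends of the same 5-base spacing, at 85 to 69 bases before the start. That arrangement was searched after the Txnip sequence had been read, and Txnip was the 1 promoter of 32851 to hold it. The E-box CACGTG, which reads the same on both strands, stood at 71 to 66 bases before the Khk start and at 98 to 93 bases before the upstream of 2 Mlxipl starts, which lie 17001 bases apart. It was present in 6.02% of promoters. The letters TTACGT, searched here as a variant part of the cAMP response element, stood at 93 to 88 bases before the Pck1 start. They stood on both strands and overlapping at 162 to 155 bases before the G6pc start, and were present in 2.40% of promoters. None of these letters was found in the Rgs16 window.

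Expression is given as the deposited normalized signal, whose scale per gene length is not known, so levels are compared between libraries and never between genes. Signal summed to between 8617660 and 11583800 in a library, and the 10 most abundant genes held 30.0% of it in Cre-positive hepatectomy replicate 2 against 14.3% to 18.4% in the other 7. Pdgfrb itself, measured over the whole gene and in all cell types, was 63.1 and 99.9 in Cre-positive hepatectomy, 123 and 70.5 in Cre-negative hepatectomy, against 59.4 and 46.0 in Cre-positive sham and 49.8 and 63.3 in Cre-negative sham, so that the genotypes overlapped in both operations. Alb, the albumin gene, was listed at 0 in all libraries but Cre-negative hepatectomy replicate 1, while none of the 8 genes was listed at 0 in any. The other 8 hepatocyte markers in the table, of 10 listed, summed to 649118 and 548469 in Cre-positive hepatectomy, 230871 and 392317 in Cre-negative hepatectomy, against 491745 and 449001 in Cre-positive sham and 468381 and 464010 in Cre-negative sham. These sums hold Serpina1a, which was also listed at 0 in at least 1 library, so they carry its gaps. After hepatectomy 7 of 9 hepatocyte markers had a negative log2 fold change in Cre-negative livers (median -0.81, beside 0.21 over all genes). Alb was one of the 2 positive ones (8.90), through Cre-negative hepatectomy replicate 1 alone. In Cre-positive livers 3 of 9 were negative and 5 positive (median 0.12, beside 0.02), and Alb was at 0 throughout. Summed erythroid markers (6 of 7 listed) were higher in every hepatectomy library (6722 to 34157) than in every sham library (3548 to 6165), and summed stellate markers (10 of 10) were lower (2479 to 2720 against 3509 to 4642). Summed macrophage markers (10 of 10) were 4488 and 5144 in Cre-positive hepatectomy, against 1913 to 2988 in the other 6 libraries. The part of these markers in the values below was not tested. The Cre-negative hepatectomy libraries also stand apart in how signal was divided among isoforms, as given with the isoform shares.

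Pklr was far below its sham level after hepatectomy in both genotypes. Its signal was 545 and 685 in Cre-positive hepatectomy, 226 and 325 in Cre-negative hepatectomy, against 1469 and 1369 in Cre-positive sham and 1184 and 1177 in Cre-negative sham. All 4 hepatectomy libraries lay below all 4 sham libraries, and the 4 groups followed each other without overlap, from Cre-negative hepatectomy at the low end to Cre-positive sham at the high end. The hepatectomy mean was 43.3% of the sham mean in Cre-positive livers and 23.3% in Cre-negative livers. On the log2(signal + 1) scale this was a fold change of -1.21 in Cre-positive and -2.12 in Cre-negative livers (SE 0.26 in each, n = 2 libraries a group throughout). The SEs are equal because the model shares the spread of a gene over the 4 groups. In RNA of a whole organ, fewer cells of a type and less RNA per cell cannot be told apart.

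Rgs16 had the lowest hepatectomy level relative to sham of the 8 genes in both genotypes. It was 29.3 and 15.3 in Cre-positive hepatectomy, 108 and 102 in Cre-negative hepatectomy, against 377 and 304 in Cre-positive sham and 571 and 985 in Cre-negative sham. The 4 groups did not overlap, and the Cre-positive libraries lay below the Cre-negative ones within each operation. The hepatectomy mean was 6.55% of sham in Cre-positive livers and 13.5% in Cre-negative livers, log2 fold changes of -3.93 and -2.83 (SE 0.39 in each). Its highest and lowest libraries differed 64.3-fold, against 1.77-fold to 11.02-fold for the other 7 genes.

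Mlxipl, the gene for ChREBP, was below sham in Cre-positive livers and overlapped sham in Cre-negative livers. Its signal was 1079 and 1366 in Cre-positive hepatectomy, 3198 and 1670 in Cre-negative hepatectomy, against 1879 and 1952 in Cre-positive sham and 1827 and 2421 in Cre-negative sham. Both Cre-positive hepatectomy libraries lay below the other 6, and the remaining groups overlapped, with Cre-negative hepatectomy replicate 1 highest of all. Log2 fold changes on hepatectomy were -0.66 in Cre-positive and 0.14 in Cre-negative livers (SE 0.34 in each). In the Cre-negative livers the sign was not stable, at -0.33 without hepatectomy replicate 1, -0.07 without sham replicate 1, -0.29 after centring within bins of gene GC content and -0.05 with median-of-ratios scaling, and 0.60 without hepatectomy replicate 2.

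Txnip was 223 and 258 in Cre-positive hepatectomy, 453 and 486 in Cre-negative hepatectomy, against 502 and 850 in Cre-positive sham and 271 and 600 in Cre-negative sham. Again the Cre-positive hepatectomy libraries lay below the other 6, while Cre-negative hepatectomy fell inside the range of its sham. Log2 fold changes on hepatectomy were -1.44 in Cre-positive and 0.22 in Cre-negative livers (SE 0.42 in each), and the Cre-negative value ran from -0.35 to 0.79 when its first or second sham library was left out. Khk was 2544 and 3758 in Cre-positive hepatectomy, 3005 and 4049 in Cre-negative hepatectomy, against 4495 and 4281 in Cre-positive sham and 4078 and 3791 in Cre-negative sham. It varied least of the 8 genes, with hepatectomy below sham in the Cre-positive livers and overlapping it in the Cre-negative livers. The log2 fold changes of Khk were -0.50 in Cre-positive and -0.17 in Cre-negative livers (SE 0.27 in each). They became -0.77 and -0.69 after GC centring. The Cre-positive value was -0.22 without hepatectomy replicate 1 and -0.79 without replicate 2, and the Cre-negative value turned to 0.04 both without hepatectomy replicate 1 and after quantile normalization, and was -0.39 without hepatectomy replicate 2.

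Among the genes of glucose output and storage, G6pc differed more within groups than between them. Its signal was 223 and 813 in Cre-positive hepatectomy, 800 and 1451 in Cre-negative hepatectomy, against 516 and 2463 in Cre-positive sham and 1254 and 832 in Cre-negative sham. Hepatectomy and sham overlapped in both genotypes, and the 2 Cre-positive sham libraries alone differed 4.78-fold. The log2 fold change was -1.40 in Cre-positive and 0.08 in Cre-negative livers, with an SE of 0.84 in each, the largest of the 8. The Cre-positive value was -2.53 without the first Cre-positive sham library and -0.27 without the second. The Cre-negative value ran from -0.35 to 0.51 when a Cre-negative hepatectomy library was left out, and its sign also turned without Cre-negative sham replicate 2 (-0.22) and with median-of-ratios scaling (-0.11).

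Pck1 was 28964 and 13169 in Cre-positive hepatectomy, 9207 and 17688 in Cre-negative hepatectomy, against 24155 and 37747 in Cre-positive sham and 34158 and 31089 in Cre-negative sham. Hepatectomy lay below sham in the Cre-negative livers, at 41.2% of its mean, and overlapped it in the Cre-positive livers, where a hepatectomy library (28964) was above a sham library (24155). Log2 fold changes were -0.63 in Cre-positive and -1.35 in Cre-negative livers (SE 0.48 in each). The Cre-positive value was -1.20 without hepatectomy replicate 1 and -0.06 without replicate 2, and the Cre-negative value -0.88 without hepatectomy replicate 1.

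Gys2 was 2115 and 970 in Cre-positive hepatectomy, 2154 and 1403 in Cre-negative hepatectomy, against 2701 and 3181 in Cre-positive sham and 4286 and 3683 in Cre-negative sham. All hepatectomy libraries were below all sham libraries, as for Pklr and Rgs16, and the hepatectomy groups overlapped each other. Log2 fold changes were -1.03 in Cre-positive and -1.19 in Cre-negative livers (SE 0.40 in each). The Cre-positive value was -1.59 without hepatectomy replicate 1 and -0.47 without replicate 2.

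**Figure D1:**
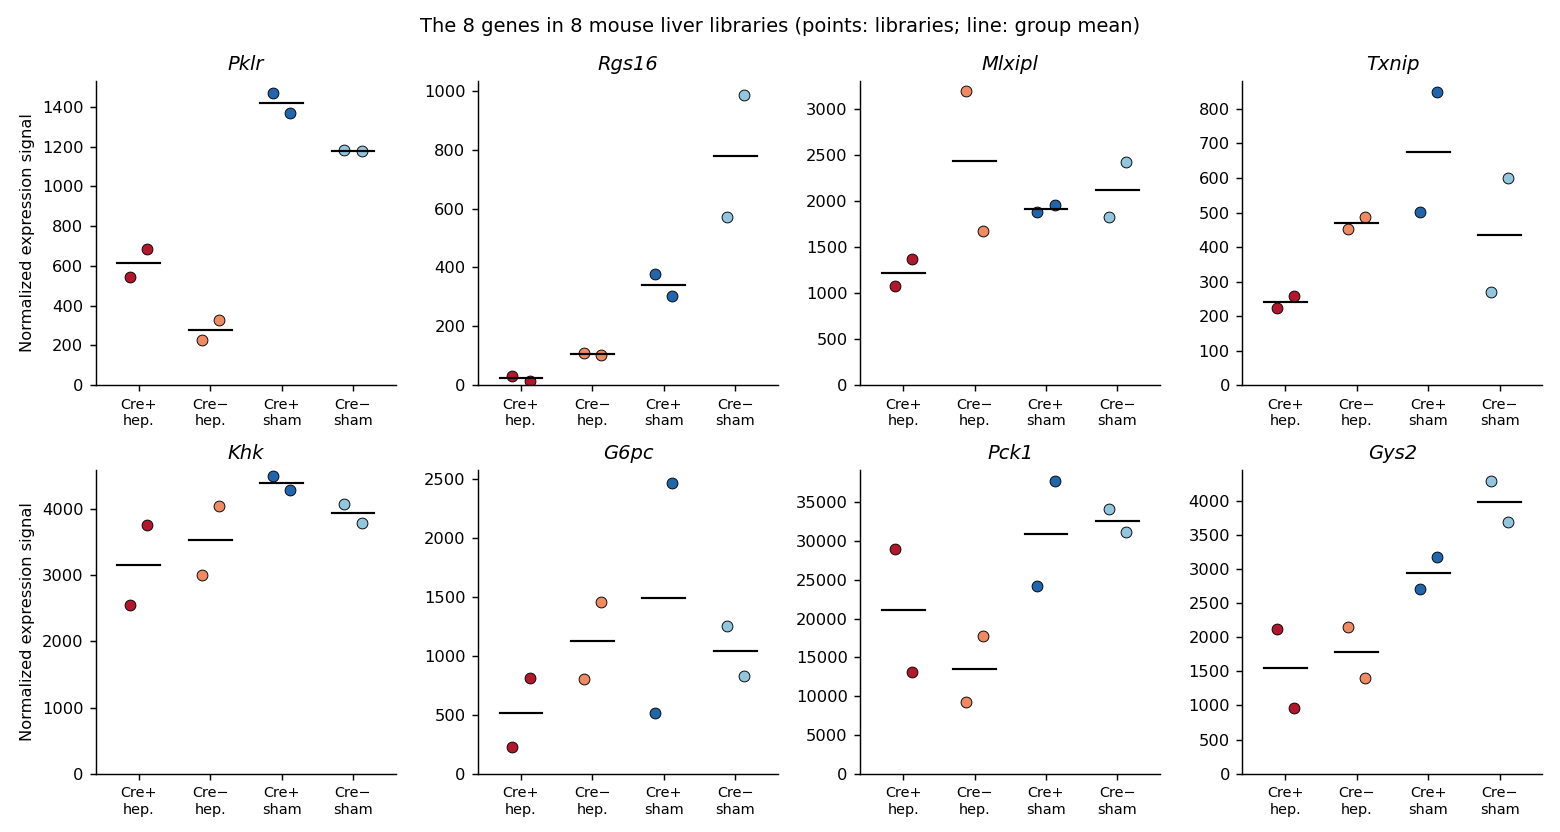
Normalized expression signal (vertical axes, from 0) of the 8 genes in the 4 groups, with a point for each library and a line at the group mean. Pklr, Rgs16 and Gys2 are lower in all 4 hepatectomy libraries than in all 4 sham libraries, while G6pc spans 223 to 2463 with its groups overlapping.

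In counts over the 8 genes, hepatectomy lay below sham without overlap for 6 genes in Cre-positive livers (Pklr, Rgs16, Mlxipl, Txnip, Khk and Gys2), for 4 in Cre-negative livers (Pklr, Rgs16, Pck1 and Gys2) and for 3 over both genotypes together (Pklr, Rgs16 and Gys2). Of all 16443 genes tested, 19.5% lay below sham in this way in Cre-positive livers, 23.3% in Cre-negative livers and 6.2% over both. None of the 8 lay above sham without overlap, beside 23.9% of all genes in Cre-positive livers, 39.7% in Cre-negative livers and 11.2% over both. Tested with limma at an adjusted p of 0.05 over those genes, Rgs16 was lower after hepatectomy than after sham in Cre-positive livers (1 of 8, beside 0.943% of all genes in either direction and 0.0973% lower), and Rgs16 and Pklr were lower than sham in Cre-negative livers (2 of 8, beside 1.11% and 0.103%). Rgs16 and Pklr were also lower averaged over genotypes (2 of 8, beside 4.49% and 0.845%). None of the 8 was higher, beside 0.845% of all genes in Cre-positive livers, 1.01% in Cre-negative livers and 3.64% averaged. The genes were chosen with falls of Pklr and Rgs16 known, so these counts describe the choice and are no test of it.

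The averaged log2 fold changes of hepatectomy were -3.38 for Rgs16 (SE 0.28), -1.67 for Pklr (SE 0.18), -1.11 for Gys2 (SE 0.28), -0.99 for Pck1 (SE 0.34), -0.66 for G6pc (SE 0.59), -0.61 for Txnip (SE 0.30), -0.34 for Khk (SE 0.19) and -0.26 for Mlxipl (SE 0.24). GC centring moved Khk to -0.73 and Mlxipl to -0.63. With a library left out, Khk ran from -0.48 to -0.20 (without Cre-positive hepatectomy replicates 2 and 1), Mlxipl from -0.49 to -0.03 (Cre-negative hepatectomy replicates 1 and 2), Txnip from -0.90 to -0.32 (Cre-negative sham replicates 1 and 2) and G6pc from -1.23 to -0.10 (Cre-positive sham replicates 1 and 2). All 8 were negative, with a median of -0.83 beside 0.12 over all genes tested. Within genotypes the median of the 8 was -1.12 in Cre-positive livers, where 8 were negative, and -0.68 in Cre-negative livers, where 5 were, beside medians of 0.02 and 0.21 over all genes. The within-genotype calls depended on the libraries in the fit. In Cre-positive livers the count of 1 became 0 without any one of the 4 sham libraries and 3 (Rgs16, Pklr and Gys2) without Cre-positive hepatectomy replicate 1. In Cre-negative livers the count of 2 became 0 without the first hepatectomy library or any one sham library, 1 without the second hepatectomy library, and 3 (Rgs16, Pklr and Gys2) without either Cre-positive hepatectomy library. Averaged over genotypes it became 4, with Gys2 and Pck1 added, without Cre-positive hepatectomy replicate 1 and stayed at 2 without each of the other 7 libraries.

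**Figure D2:**
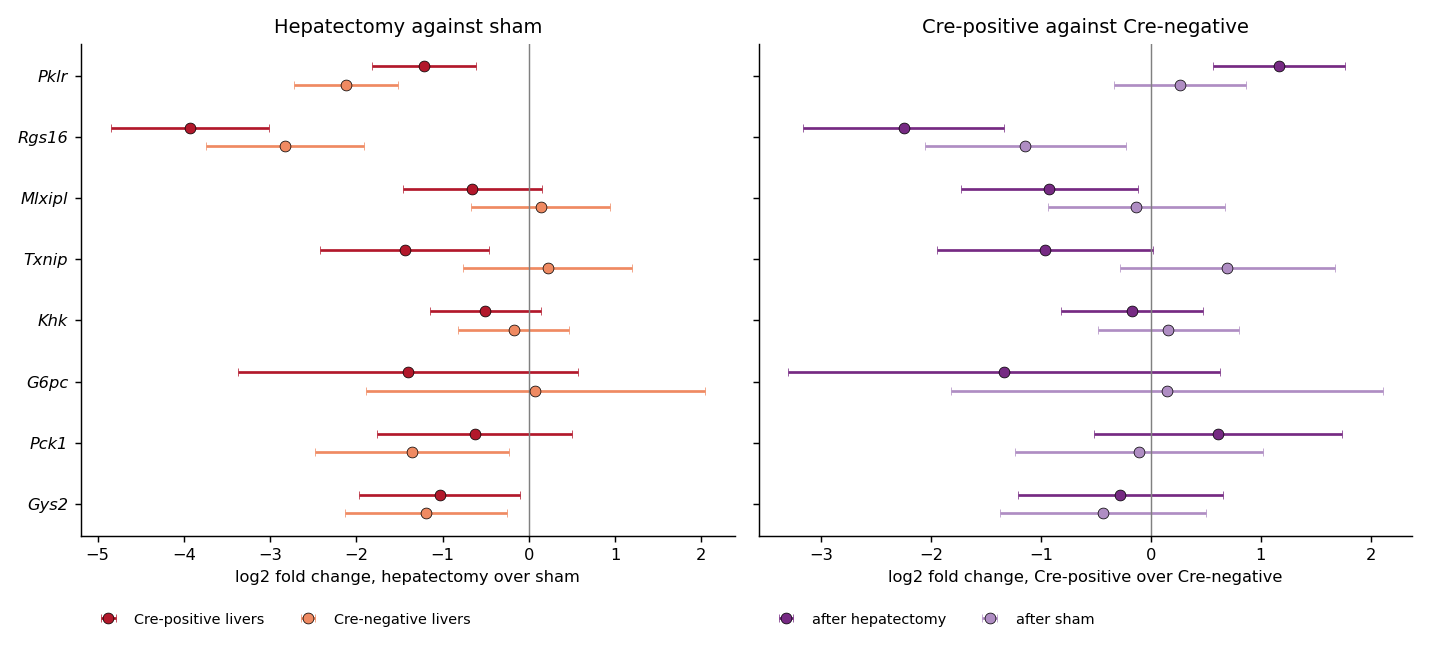
Log2 fold changes of the 8 genes with 95% confidence intervals from limma, for hepatectomy over sham in each genotype (left) and for Cre-positive over Cre-negative livers in each operation (right). On the left the intervals of Pklr, Rgs16 and Gys2 lie below 0 in both genotypes, and on the right Pklr lies at 1.17 and Rgs16 at -2.25 after hepatectomy. The intervals are not adjusted over genes. On the left only Rgs16 passed the adjusted threshold in both genotypes, Pklr passed in Cre-negative livers and Gys2 in neither. The genes were chosen with falls of Pklr and Rgs16 known. None of the 8 passed on the right.

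The choice of genes is not known to have used the comparison of genotypes, which was therefore tested. None of the 8 differed between Cre-positive and Cre-negative livers at an adjusted p of 0.05 by limma, in sham or after hepatectomy, where 0.00608% and 0.0182% of all genes did. At an unadjusted p of 0.05 the counts were 1 of 8 genes in sham (146 of all genes) and 3 of 8 after hepatectomy (3009 of all genes).

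After hepatectomy, Pklr was higher in Cre-positive than in Cre-negative livers without overlap (545 and 685 against 226 and 325), with a log2 difference of 1.17 (SE 0.26, 95% interval 0.57 to 1.77, limma adjusted p = 0.13). Rgs16 was lower (29.3 and 15.3 against 108 and 102), with a log2 difference of -2.25 (SE 0.39, 95% interval -3.17 to -1.34, limma adjusted p = 0.0989). The libraries of the 2 genotypes thus separated in opposite directions for Pklr and Rgs16, and the cause was not tested. Both passed the threshold without Cre-positive hepatectomy replicate 1, with log2 differences of 1.33 (limma adjusted p = 0.0275) for Pklr and -2.70 (limma adjusted p = 0.0115) for Rgs16. In that fit 2142 genes passed in all, against 3 with every library, and the remaining Cre-positive hepatectomy library is assumed to vary like the other groups. Mlxipl and Txnip were also lower without overlap, with log2 differences of -0.93 (SE 0.34, limma adjusted p = 0.233) and -0.96 (SE 0.42, limma adjusted p = 0.278). Leaving out the first or the second Cre-negative hepatectomy library gave a Mlxipl difference of -0.46 or -1.40. In all, 3 of the 8 genes lay below and 1 above without overlap, beside 26.3% and 14.2% of all genes. In the same comparison 9 of 10 macrophage and 9 of 10 endothelial markers had positive log2 differences (medians 0.83 and 0.70, beside -0.23 over all genes). Of the hepatocyte markers 6 of 9 were positive (median 0.35). Cholangiocyte (7 of 8), stellate (8 of 10) and erythroid markers (4 of 6) were mostly negative (medians -1.22, -0.30 and -0.54). Of all genes only 37.0% were positive. Summed cholangiocyte markers overlapped (1810 and 621 in Cre-positive, 850 and 600 in Cre-negative hepatectomy), as did erythroid ones (6722 and 34157, 11896 and 18145). Summed stellate markers were lower (2555 and 2479, 2720 and 2638). Against sham, 10 of 10 endothelial markers were negative in Cre-negative livers (median -0.87) and 6 of 10 in Cre-positive livers (median -0.26).

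For the other 4 genes the libraries of the genotypes overlapped after hepatectomy. The 95% intervals of the log2 difference ran from -3.30 to 0.63 for G6pc, -0.51 to 1.74 for Pck1, -1.22 to 0.66 for Gys2 and -0.82 to 0.47 for Khk, and each holds 0. With a Cre-positive hepatectomy library left out, G6pc ran from -2.26 to -0.41 and Pck1 from 0.05 to 1.18. The sign of the Khk difference (-0.17) turned to 0.11 after GC centring. Khk has the highest GC content of the 8 (59.4%), and genes within 2 percentage points of it had median log2 values 0.69 above the sham mean in Cre-positive hepatectomy replicate 2, 0.15 below it in replicate 1, and 0.67 and 0.45 above it in the Cre-negative hepatectomy libraries.

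Between sham livers of the 2 genotypes, Rgs16 was 377 and 304 in Cre-positive against 571 and 985 in Cre-negative livers, lower without overlap, with a log2 difference of -1.15 (SE 0.39, limma adjusted p = 1, unadjusted p by limma 0.021). It was -0.75 without Cre-negative sham replicate 2. Gys2 was also lower without overlap (-0.44, SE 0.40), and Pklr (0.26, SE 0.26) and Khk (0.16, SE 0.27) were higher without overlap, all with a limma adjusted p of 1. That is 2 of 8 below and 2 above, beside 19.4% and 12.1% of all genes. Mlxipl, Txnip, G6pc and Pck1 overlapped.

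The hepatectomy response itself was compared between genotypes as the difference of the 2 log2 fold changes. None of the 8 genes differed at an adjusted p of 0.05 by limma, where 0.0122% of all genes did, and 2 of 8 reached an unadjusted p of 0.05 (1330 of all genes). Txnip had the most negative difference, -1.66 (SE 0.59, 95% interval -3.05 to -0.27, limma adjusted p = 0.586), with the Cre-positive value lower. Pklr had a difference of 0.90 (SE 0.36, 95% interval 0.06 to 1.75, limma adjusted p = 0.595) and Rgs16 of -1.11 (SE 0.55, 95% interval -2.40 to 0.19, limma adjusted p = 0.655). The other 5 ranged from -1.48 (G6pc, SE 1.18) to 0.72 (Pck1, SE 0.68), with limma adjusted p from 0.701 upward. Leaving out a library moved the Txnip value to -1.09 (Cre-negative sham replicate 1), the Rgs16 value to -0.66 (Cre-positive hepatectomy replicate 2) and the G6pc value to -0.35 (Cre-positive sham replicate 2).

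The files also divide each gene's signal among its annotated isoforms, 5 for Pklr, 9 for Mlxipl, 6 for Txnip, 4 each for Khk and Pck1, 2 for Gys2 and 1 each for Rgs16 and G6pc. The Cre-negative hepatectomy libraries stood apart in the 6 genes with several isoforms. Pklr-003 held 24.9% and 28.7% of Pklr signal in Cre-positive hepatectomy, 0.145% and 3.04% in Cre-negative hepatectomy, against 19.2% and 20.1% in Cre-positive sham and 18.5% and 22.7% in Cre-negative sham. It was thus near 0 in both Cre-negative hepatectomy libraries and a sizeable share in the other 6. Mlxipl-001 held 27.9% and 29.6% in Cre-positive hepatectomy, 0.105% and 11.4% in Cre-negative hepatectomy, against 41.2% and 40.8% in Cre-positive sham and 42.7% and 41.9% in Cre-negative sham. Here both hepatectomy groups were below sham, with the Cre-negative one lowest.

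Txnip-201 held 18.6% and 22.8% in Cre-positive hepatectomy, 0.0216% and 0.0113% in Cre-negative hepatectomy, against 13.5% and 6.89% in Cre-positive sham and 10.4% and 9.15% in Cre-negative sham. Txnip-005 went the other way, with 0.393% and 1.78% in Cre-positive hepatectomy and 15.8% and 11.9% in Cre-negative hepatectomy, and at most 1.08% in the sham libraries. Pck1-004 held 2.41% and 3.61% in Cre-positive hepatectomy against 0.0767% and 0.108% in Cre-negative hepatectomy, and 1.64% to 2.63% in sham. Minor isoforms of Khk and Gys2 were likewise raised in the Cre-negative hepatectomy libraries. Khk-004 held 3.02% and 2.74% in Cre-positive hepatectomy against 16.6% and 8.03% in Cre-negative hepatectomy, and 2.16% to 3.53% in sham. Gys2-002 held 2.80% and 2.64% in Cre-positive hepatectomy against 22.1% and 11.6% in Cre-negative hepatectomy, and 2.21% to 3.83% in sham. What these isoforms encode, and from which start they are transcribed, is not given in the files.

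**Figure D3:**
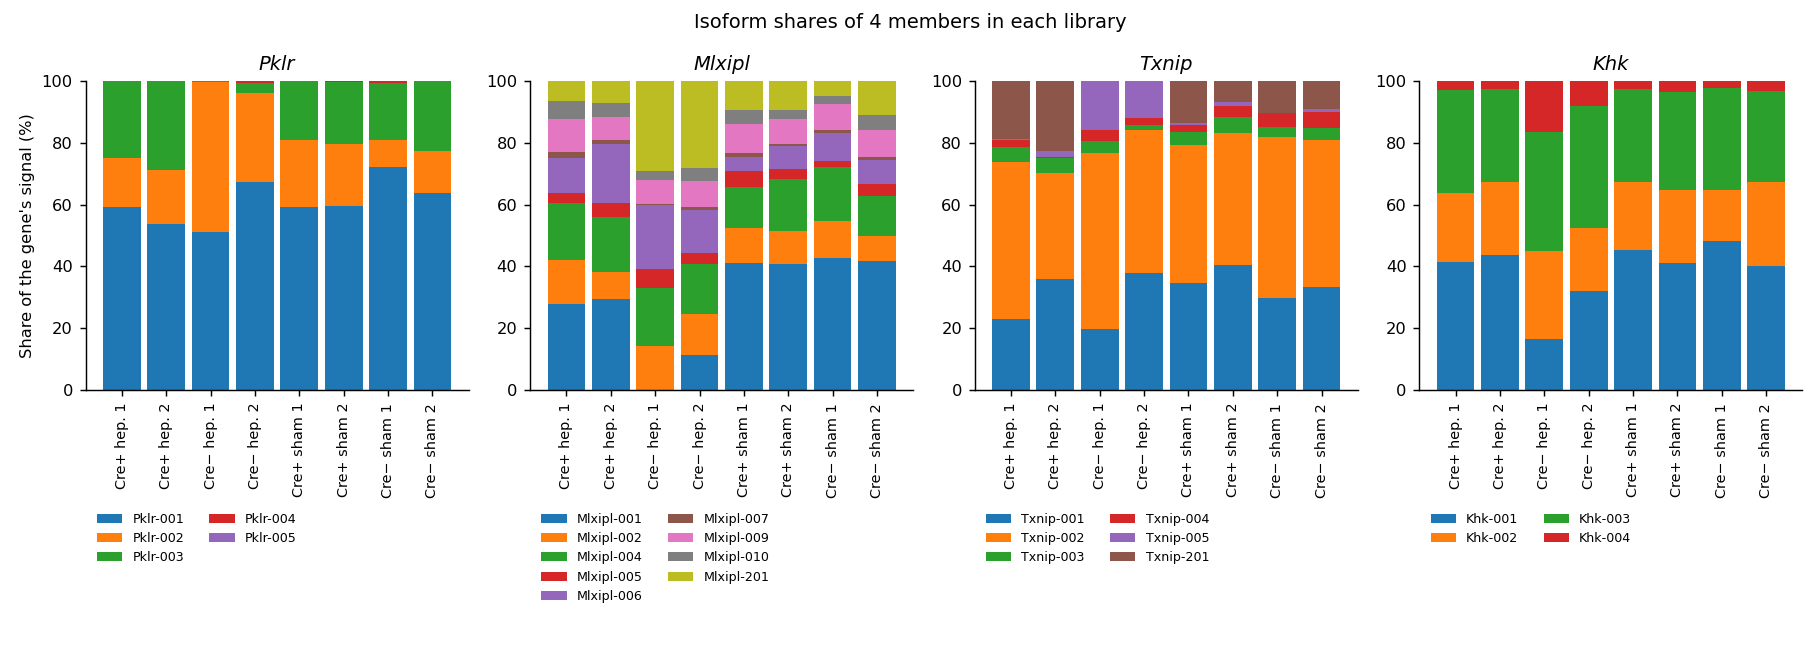
Share of each gene's signal held by each annotated isoform (vertical axis, percent) in the 8 libraries, for Pklr, Mlxipl, Txnip and Khk. The Cre-negative hepatectomy libraries have almost no Pklr-003 and Txnip-201 and a larger share of Mlxipl-201, Txnip-005 and Khk-004.

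The same was true across the whole table. Of 50458 isoforms of genes with a signal of at least 10 in every library, 433 held under 5% of their gene in both Cre-negative hepatectomy libraries and at least 10% in all 6 others, against 17 for Cre-positive hepatectomy, 5 for Cre-positive sham and 4 for Cre-negative sham. Pklr-003 was the only isoform of the 8 genes among the 433. The part of this split in the gene-level values of the Cre-negative hepatectomy libraries was not tested.

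Over the 8 libraries, the log2 signals of the 8 genes mostly varied together. Of 28 pairs 26 had a positive Pearson r, with a median of 0.47, from -0.28 for Mlxipl and Pck1 to 0.87 for Rgs16 and Gys2. These values describe 8 libraries that share 4 groups, and they carry no test. Among the 12165 genes whose mean signal reached 10, the pattern most like that of Pklr was that of Glul, the glutamine synthetase gene (r = 0.99), followed by Cyp4a12a (0.98) and Ido2 (0.98). Arl15 and Mcc were among the genes most like Rgs16 (0.97 each), and Mlxipl was most like Aspg, Grik5 and Sned1 (0.97 each). Txnip was most like Fbxo32 (0.91), Xpa (0.89) and Pnpla2 (0.88), and Khk most like Aldh1l1, Gm8566 and Rnf167 (0.98 each). G6pc was most like Apoc1 (0.95), Kcnn1 (0.92) and Plin5 (0.90). Pck1 was most like Akirin1 (0.99), Sfxn1 (0.98) and Cyb5 (0.98), and Gys2 most like Clip1 (0.99), 1700081L11Rik (0.98) and Pptc7 (0.98). None of the genes named here for likeness was on a pathway list used here.

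Of the other genes of these pathways, 17 of 154 tested (11%) passed the threshold for hepatectomy averaged over genotypes, 10 higher and 7 lower, beside 4.49% of all genes (3.64% higher and 0.845% lower). The lists were chosen with earlier results known, so this share describes them and is no test. In glycolysis and glucose uptake 2 of 25 rose and 2 fell. Pkm2, the name in these files of the pyruvate kinase gene of growing tissues, had 467 and 468 in Cre-positive hepatectomy, 287 and 205 in Cre-negative hepatectomy, against 144 and 119 in Cre-positive sham and 139 and 156 in Cre-negative sham. It rose where Pklr, the liver form, was lower, with a log2 fold change of 1.27 (SE 0.18, limma adjusted p = 0.0142). The hexokinase gene Hk3 rose by 1.11, a value set mainly by Cre-positive livers (2.20). Its averaged call was lost with median-of-ratios scaling, quantile normalization and GC centring. The bifunctional enzyme gene Pfkfb3 fell by 1.68 (SE 0.27, limma adjusted p = 0.022), and Slc2a2, the glucose transporter GLUT2, fell by 1.65 (SE 0.32, limma adjusted p = 0.0358). The list median was 0.17, beside 0.12 over all genes.

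In fructose and polyol entry 2 of 9 rose past the threshold and none fell past it (median 0.21). These were Akr1b3, aldose reductase (1.73, limma adjusted p = 0.00798), and the galactokinase gene Galk1 (0.90). Among 30 genes of the ChREBP and Mlx network and its glucose-responsive genes 2 rose and 2 fell (median -0.16). Mxd3, a partner of Max that is expressed in the S phase, rose by 3.93 (SE 0.54, limma adjusted p = 0.0117) and Tm6sf2 by 1.21, while Thrsp, a lipogenic glucose-responsive gene, fell by 1.45 (limma adjusted p = 0.0302) and Bhlhe40, a glucose-induced clock repressor, by 1.18 (limma adjusted p = 0.00821). Mlx, the partner of ChREBP, had 355 and 533 in Cre-positive hepatectomy, 278 and 261 in Cre-negative hepatectomy, against 337 and 393 in Cre-positive sham and 420 and 360 in Cre-negative sham.

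Of 22 other genes of gluconeogenesis 1 rose and 1 fell (median -0.22). Pck2, the mitochondrial counterpart of Pck1, rose by 1.78 (SE 0.37, limma adjusted p = 0.045), and Tat, a fasting-induced amino acid enzyme, fell by 1.08 (limma adjusted p = 0.0356). Of 24 tested glycogen genes Pygb, the brain-type phosphorylase, rose by 1.36 and Epm2a, the glycogen phosphatase laforin, fell by 1.16 (median -0.27). In the pentose phosphate pathway Pgd rose by 0.81 (1 of 8, median 0.54), and of 12 tested relatives of Rgs16 in the RGS family Rgs19 rose by 1.38 (median 0.53). None of those 12 passed the threshold as lower, but 5 had a negative log2 fold change, the lowest at -1.46. These calls kept their sign under every setting and left-out library in which the gene had a value. Of the 17 genes (Igfbp1, below, is the last) 10 were lost with no filter on low values, 5 with median-of-ratios scaling, 4 after quantile normalization, 3 with a pseudocount of 10 and 3 of 16 after GC centring, Pck2 and Tm6sf2 in all of these but the last. Of the same 17 genes 0 passed without Cre-negative sham replicate 1 or Cre-positive sham replicate 1, 2 without either second sham library, 4 without either Cre-negative hepatectomy library, and 17 and 15 without Cre-positive hepatectomy replicates 1 and 2.

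**Figure D4:**
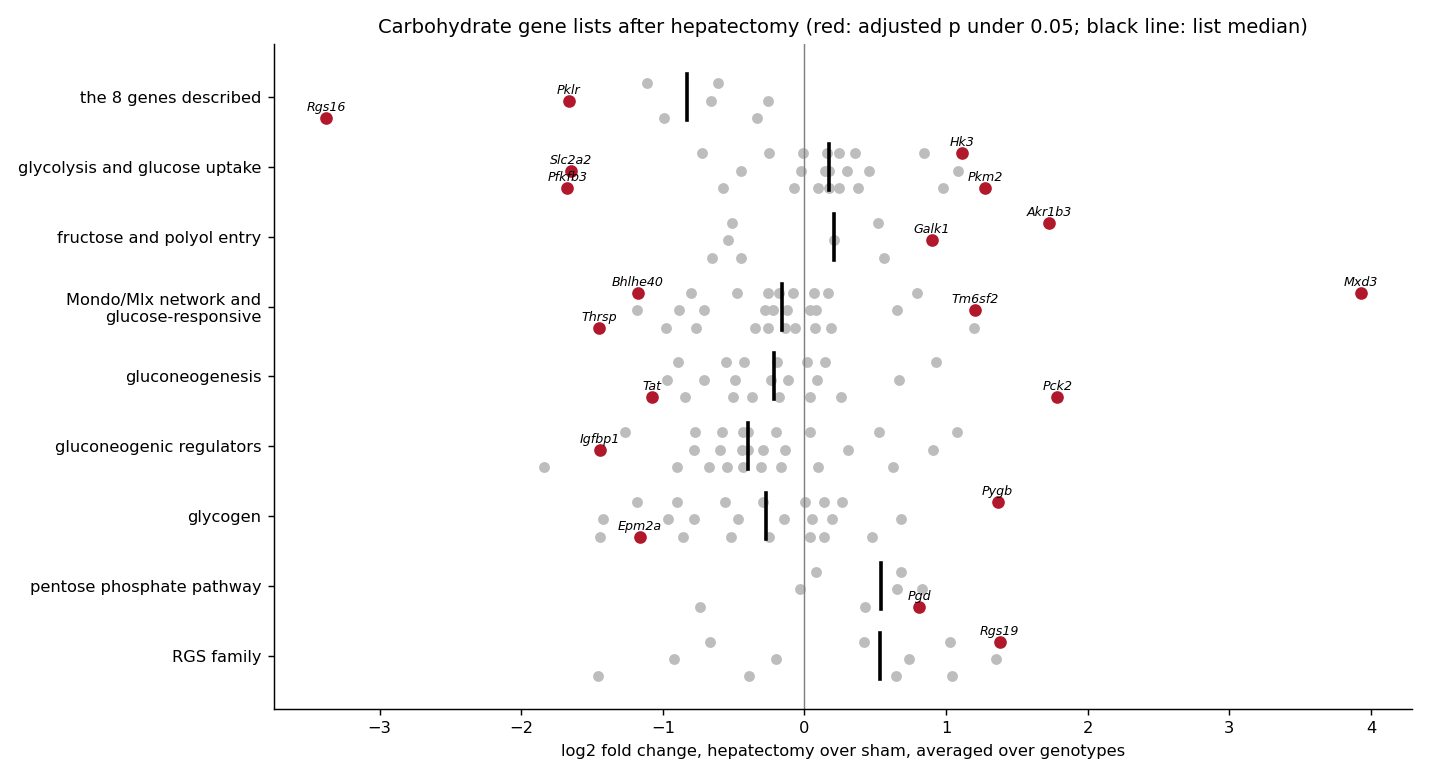
Log2 fold change of hepatectomy over sham, averaged over genotypes, for the 8 genes and the pathway lists, with a point for each gene tested (height within a row carries no value), red points past an adjusted p of 0.05 by limma and a black line at each median. The median of the 8 genes lies at -0.83 and those of the other lists between -0.40 and 0.54.

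Within single genotypes 5 of the 154 passed in Cre-positive livers (3.25%, beside 0.943% of all genes) and 1 in Cre-negative livers (0.649%, beside 1.11%). In Cre-positive livers Akr1b3 (2.61), Hk3 (2.20) and Pkm2 (1.83) rose, and Igfbp1 (-3.27) and Ppp1r3g (-4.31), a fasting-induced glycogen targeting subunit, fell. The summed macrophage markers given above were also highest in these hepatectomy libraries. In Cre-negative livers Bhlhe40 fell (-1.31, limma adjusted p = 0.0427). Of these 6 calls, 0 remained when the fit held the compared groups alone, and Pklr and Rgs16 themselves were not past the threshold in that fit. Igfbp1 was also lost without either Cre-positive sham library, and the other 5 without any one of the 4 sham libraries or of the 2 Cre-negative hepatectomy libraries.

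Between genotypes, 1 pathway gene passed, among 27 regulators of gluconeogenesis. Igfbp1, an insulin-repressed gene, was 436 and 480 in Cre-positive hepatectomy, 7883 and 8615 in Cre-negative hepatectomy, against 5192 and 3788 in Cre-positive sham and 6883 and 5838 in Cre-negative sham. Its averaged log2 fold change of -1.45 came from Cre-positive livers (-3.27), while in Cre-negative livers both hepatectomy libraries lay above both sham libraries. Igfbp1 was lower in Cre-positive than in Cre-negative livers after hepatectomy, by a log2 difference of -4.17 (SE 0.24, limma adjusted p = 0.00668). The difference of responses, -3.65 (SE 0.35), had a limma adjusted p of 0.0631. The genotype difference had adjusted p-values up to 0.29 in limma fits of other settings. It missed the threshold with the compared groups alone, and when Cre-negative hepatectomy replicate 1 or either Cre-negative sham library was left out.

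Of the genes that were set beside it after their values had been seen, Pdk4, a fasting-induced brake on glucose oxidation, had 15.3 and 20.2 in Cre-positive hepatectomy, 607 and 566 in Cre-negative hepatectomy, against 180 and 41.4 in Cre-positive sham and 73.8 and 46.8 in Cre-negative sham. Ppp1r3g had 0.251 and 1.55 in Cre-positive hepatectomy, 136 and 50.2 in Cre-negative hepatectomy, against 22.3 and 53.2 in Cre-positive sham and 21.1 and 40.7 in Cre-negative sham. For both genes the Cre-positive hepatectomy libraries lay below, and for Pdk4 the Cre-negative ones above, all sham libraries. Their genotype differences after hepatectomy, -4.98 (SE 0.63) and -5.55 (SE 0.68), each had a limma adjusted p of 0.0888. Pck1 and G6pc overlapped between the genotypes in the same libraries, with the wide intervals given above. The part of insulin or fasting in any of these differences was not tested.

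**Figure D5:**
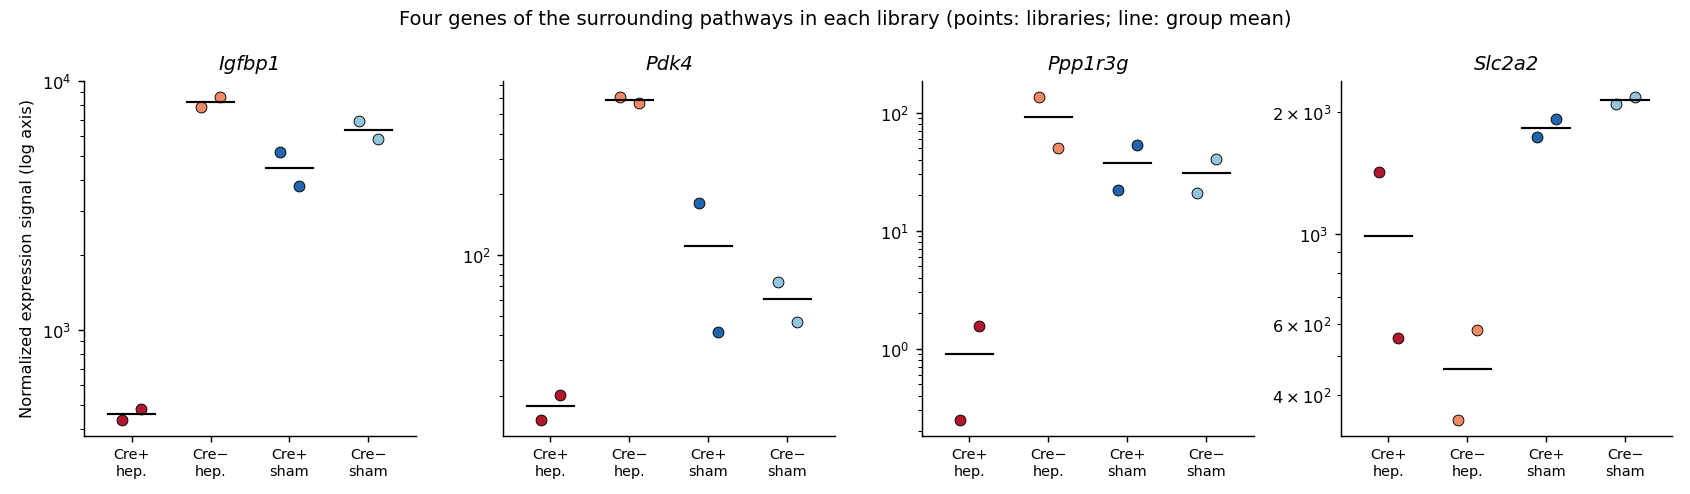
Normalized expression signal (log axes) of Igfbp1, Pdk4, Ppp1r3g and Slc2a2 in the 4 groups, with a point for each library and a line at the group mean. The Cre-positive hepatectomy libraries are lowest for the first 3 genes (436 and 480 for Igfbp1), while Slc2a2 is lower in all 4 hepatectomy libraries (348 to 1419) than in the sham libraries (1738 to 2178).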

How the data were processed

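The values used are the normalized expression signal per gene and per isoform as deposited by the authors. The submitters' processing notes list TopHat, Cufflinks, mm9 and NCBIM37, with no versions, roles or order. The sources used here do not give the normalization. The planned tests assumed FPKM, and the signal was tested in the same way. Depth is unknown, so no counting error is given. All 8 value columns matched a sample, with 0 left over. Groups follow the titles. One limma 3.58.1 model (R 4.3.3), fitting 4 group means to log2(signal + 1), covered the 16443 genes averaging a signal of 1 or more, with an intensity trend, 2-sided tests and Benjamini-Hochberg adjustment over all of them. The spread of a gene was shared over the 4 groups. Replicates differed by a median of 1.61-fold in Cre-positive and 1.37-fold in Cre-negative hepatectomy, against 1.15-fold in Cre-positive and 1.16-fold in Cre-negative sham. The shared SE may thus be too small between hepatectomy groups and too large between sham groups. Log2 fold changes understate the change of low genes. The model was tested on simulated data. GC content came from transcripts of GRCm38. The 8 genes, the pathway lists and the tests were chosen with earlier results of these data known. In each list, at most 4 genes past the threshold, by smallest adjusted p, were named, otherwise values of at most 2. Some genes, including a member of a pathway list, are not reported here, and list counts and medians leave them out.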

Additional observations from a re-analysis of the deposited data

How the results depend on the processing

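Averaged over genotypes, the fold changes of Pklr (-1.92 to -1.54) and Rgs16 (-3.64 to -3.10) kept their sign in all 13 alternatives. The genes were chosen with these falls known in the same libraries, so this is a description and no test. The number of genes called moved more. For hepatectomy in Cre-negative livers it was 183 (2 of the 8 genes), 103 (1) with no filter on low values, 79 after quantile normalization, 63 (0) with the compared groups alone, 450 after GC content centring and 0 to 1657 (0 to 3) with a library left out. In Cre-positive livers it was 155 (1), 78 with a pseudocount of 10, 7 (0) with no filter, 99 after quantile normalization, 0 (0) with the compared groups alone, 287 (2) after GC centring and 1 to 3459 (0 to 3) with a library left out. Averaged, it was 738 (2), 405 with no filter and 134 to 5369 (2 to 4) with a library left out. Between genotypes in sham it was 1 (0), 0 with no filter or GC centring and 0 to 19 (0 to 0) with a library left out, and after hepatectomy 3 (0), 22 with no filter, 0 with the compared groups alone and 0 to 2142 (0 to 2). For the difference of responses it was 2 (0), 0 with a pseudocount of 10 or GC centring, 1 with no filter and 0 to 732 (0 to 0). The cause was not tested. Quantile normalization moved the median log2 change of all genes to -0.03 from 0.12 averaged and to 0.03 from -0.23 between genotypes after hepatectomy.

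Signs turned for Khk between genotypes after hepatectomy (0.11 after GC centring, -0.46 to 0.11 with a library left out) and for Gys2 in the difference of responses (-0.030 after quantile normalization, -0.40 to 0.72). In the hepatectomy response of Cre-negative livers they turned for Mlxipl and G6pc in 4 of 14 alternatives each (-0.33 to 0.60 and -0.35 to 0.51), for Khk in 2 (-0.69 to 0.042) and for Txnip in 1 (-0.35 to 0.79). With a library left out they also turned between genotypes for Gys2 after hepatectomy (-0.84 to 0.28) and, in sham, for Mlxipl (-0.34 to 0.068), G6pc (-0.98 to 1.27) and Pck1 (-0.43 to 0.21). No paired analysis was possible because the labels give the groups no shared replicate numbers. With 2 libraries a group and unknown depth, small differences cannot be told from spread.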
